A study of Homo sapiens with 6 samples.

Results

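The AP-1, MYC and immediate early genes were followed in H358 cells, a human lung cancer cell line of epithelial character, as 10 genes chosen by symbol: FOS, FOSL1, FOSL2, JUN, JUNB, JUND, EGR1, IER2, IER3 and MYC. They were 10 of 54607 Ensembl rows, and 9 of them were among the 13611 rows that averaged 1 FPKM or more (fragments scaled to transcript length and to library size) over the 6 libraries, the level set for testing. In 3 libraries the cells carried lentiviral short hairpin RNAs against both ESRP1 and ESRP2, splicing regulators of epithelial cells (knockdown), and in the other 3 a control knockdown whose hairpin the labels do not describe (control). The cell line, its culture and the library kit were shared by both groups, the libraries of each group were described as biological triplicates, and every mean ± SD below has n = 3. The constructs differ between the groups, so what the hairpins do by other routes and what lower ESRP does cannot be told apart.

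AP-1 is a dimer of basic leucine zipper proteins, formed by a JUN protein with a FOS protein or with another JUN protein, and it binds short palindromic DNA sites. Many genes of the set are immediate early genes: growth factor signalling through ERK switches them on within minutes without new protein synthesis, through serum response factor and its ETS partners at the CArG box and through CREB family proteins at sites holding TGACG, and their mRNAs are short-lived. EGR1 is a zinc finger factor of the same early response, and MYC, a basic helix-loop-helix zipper protein that works as a dimer with MAX, drives genes of growth, nucleotide and ribosome synthesis.

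Promoter windows of 300 bases, from 250 bases before the gene start to 50 bases after it, were held for 7 of the 10 genes in the RefSeq table (GRCh38.p14). The 3 printed here belong to EGR1 and IER2, the members called lower in the knockdown, and to FOSL2, the only tested member with a higher mean in the knockdown. They were chosen after the values were seen. Capitals mark the CArG box, the AP-1 site in the form TGANTCA, and TGACG or its reverse complement CGTCA.
EGR1 (chr5:138465229-138465528, plus strand): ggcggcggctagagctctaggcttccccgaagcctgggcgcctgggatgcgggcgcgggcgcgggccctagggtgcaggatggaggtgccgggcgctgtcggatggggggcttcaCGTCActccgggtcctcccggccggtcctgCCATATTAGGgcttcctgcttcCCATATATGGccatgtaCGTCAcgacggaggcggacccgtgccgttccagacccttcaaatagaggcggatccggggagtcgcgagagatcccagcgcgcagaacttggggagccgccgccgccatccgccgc
IER2 (chr19:13150161-13150460, plus strand): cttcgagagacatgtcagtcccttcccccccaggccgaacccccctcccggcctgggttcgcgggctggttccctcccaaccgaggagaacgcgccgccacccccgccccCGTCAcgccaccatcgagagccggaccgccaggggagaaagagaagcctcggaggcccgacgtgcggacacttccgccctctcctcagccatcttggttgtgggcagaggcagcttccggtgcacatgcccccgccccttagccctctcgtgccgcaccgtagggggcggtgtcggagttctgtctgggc
FOSL2 (chr2:28392608-28392907, plus strand): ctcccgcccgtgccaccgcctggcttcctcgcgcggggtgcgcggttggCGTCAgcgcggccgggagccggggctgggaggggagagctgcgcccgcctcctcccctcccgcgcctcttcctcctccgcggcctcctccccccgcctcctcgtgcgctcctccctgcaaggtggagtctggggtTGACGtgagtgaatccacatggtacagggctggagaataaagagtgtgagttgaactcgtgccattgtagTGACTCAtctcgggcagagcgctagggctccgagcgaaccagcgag
Both strands were searched, and positions count from 1 at the gene start. The EGR1 window held 2 CArG boxes, at -105 to -96 and at -83 to -74, and no other of the 7 member windows held a match. Bases beyond the windows were not searched, and FOSL1, IER3 and MYC were not searched at all. Members without a match may therefore hold sites elsewhere. Among all 35116 promoter windows, 1.29% held one. TGACG was matched in all 7 member windows and in 24.6% of all windows. The AP-1 site in the form TGANTCA was matched in FOSL2 alone, at 5 to 11, and in 7.71% of all windows. Longer or variant forms of the AP-1 site were not searched for, so the other windows may hold them. The other motifs searched were TATAAA, matched in FOS and JUNB and in 11.5% of all windows, and the EGR site GCGNGGGCG, matched in EGR1 at -198 to -190 and in 9.43% of all windows. No matches in the printed windows overlapped. A match is a description of these letters and shows no binding.

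The targeted genes stood at 16.3% of the control level for ESRP1 and 54.2% for ESRP2. Depth, read from ratios of low values between libraries, ran from 0.993 to 1.66 times that of control replicate 1, and total depth is unknown. All 6 epithelial markers were above 1 FPKM in every group, and their summed level ranged over the knockdown libraries from 3018 to 3113 FPKM and over the control libraries from 3485 to 3593 FPKM. Their part in the results below was not tested. Of 6 lung epithelial markers 3 reached 1 FPKM, while SFTPB and SCGB1A1 were listed at 0 in all libraries, and of the 5 blood cell, 5 fibroblast and 2 endothelial markers examined COL1A1 alone did. Over all tested genes limma, a moderated linear model, called 16.7% at a Benjamini-Hochberg adjusted p below 0.05, 6.54% higher and 10.2% lower in the knockdown, and in 38.1% the groups did not overlap. Of the tested markers, CDH1, KRT7, KRT8, KRT18, KRT19 and FOXA2 were called lower in the knockdown. EPCAM, NKX2-1, NAPSA and COL1A1 were not called.

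Of the 9 tested members, EGR1 and IER2 fell and none rose, where 16.7% of all tested genes were called. In limma 5 of the 9 had an unadjusted p below 0.05, FOSL2 among them in the upward direction. Among all tested genes this share was 32.9% (14.6% higher and 18.2% lower). By the sign of the log2 fold change alone 8 were lower and 1 higher, where 49.3% of all tested genes were higher. That sign count depended on the scaling. After a correction for transcript GC content and length, FOSL1, JUN and MYC had the opposite sign (0.033, 0.021 and 0.016). The median over all tested genes was then 0.011. The groups did not overlap for 4 of the 9, against 38.1% of all tested genes. As deposited, the median log2 fold change of the 9 was -0.10, against -0.0021 over all tested genes. Log2 fold changes are knockdown minus control on log2(FPKM + 1), which understates the change of low genes.

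**Figure D1:**
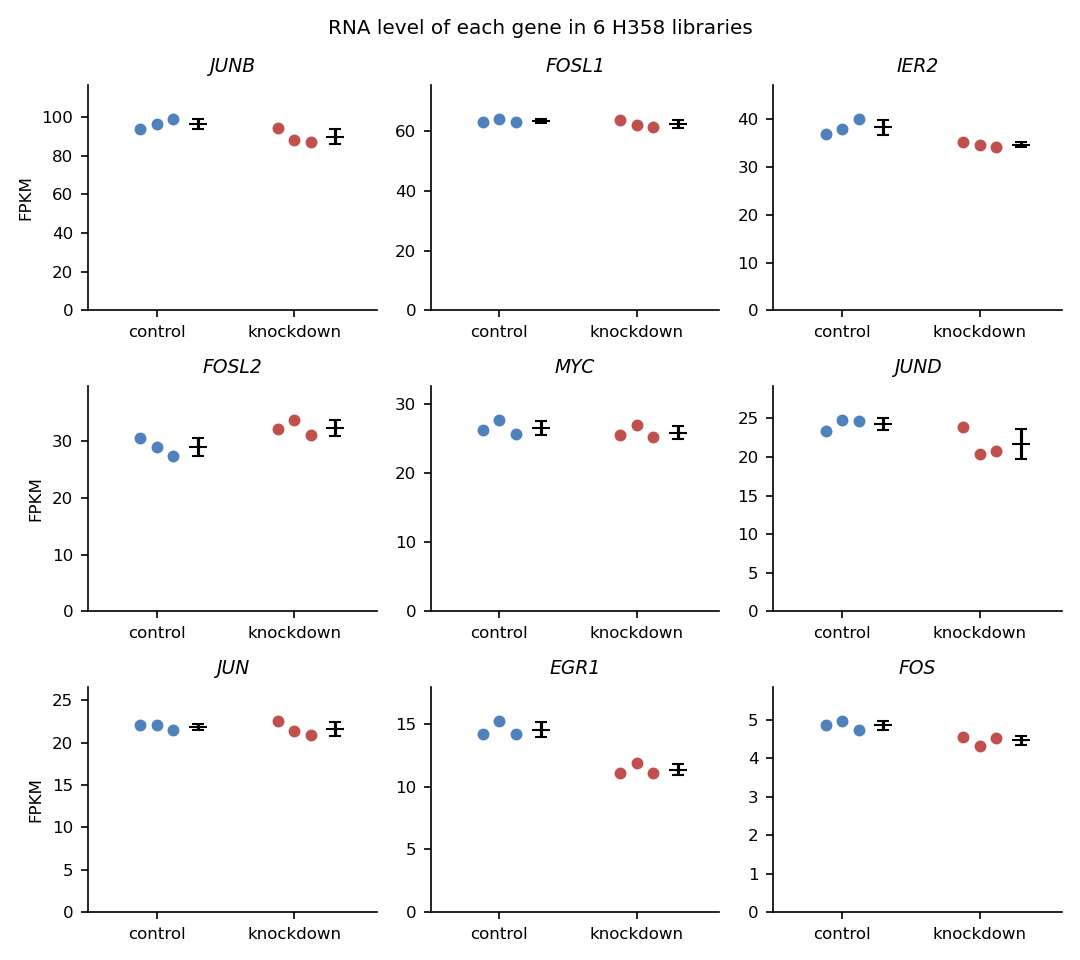
FPKM of the 9 tested genes in each library (points; control in blue, knockdown in red; black bars are the mean and SD of 3 libraries; each vertical axis starts at 0). EGR1 stood at 11.1 to 11.9 FPKM in the knockdown and 14.2 to 15.2 FPKM in the control, while the MYC, JUN and FOSL1 libraries of the groups overlap.

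In the control libraries JUNB was the most abundant member, at 96.5 ± 2.6 FPKM, above 93.7% of tested genes. FOSL1 followed at 63.4 ± 0.61 FPKM and IER2 at 38.3 ± 1.6 FPKM. FOSL2 and MYC came next, with libraries that overlapped each other, then JUND, JUN, EGR1 and FOS, no other pair of neighbours overlapping. FOS, the founding member of its family, was the lowest of the 9 at 4.86 ± 0.12 FPKM, above 26.7% of tested genes. The order was the same in the knockdown, where JUND and JUN overlapped and FOSL2 and MYC did not. FPKM is scaled to transcript length, so levels of different genes are set side by side here as a description. Transcript GC content also differs between the genes, from 55.4% for EGR1 to 69.7% for JUND. Its part in the order was not tested, and RNA level is not protein level.

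EGR1 (ENSG00000120738, hg19 chromosome 5, 137801169 to 137805004) was at 11.1, 11.9 and 11.1 FPKM in knockdown replicates 1, 2 and 3 and at 14.2, 15.2 and 14.2 FPKM in control replicates 1, 2 and 3. Every knockdown library lay below every control library. The knockdown mean was 78.2% of the control mean, with a log2 fold change of -0.33 (standard error 0.05; limma adjusted p = 0.0039). The call held when any single library was left out (adjusted p up to 0.018) and after a correction that removes the dependence of every library on transcript GC content and length (log2 fold change -0.30, adjusted p = 0.0063). Its relatives EGR2, EGR3 and EGR4 were below 1 FPKM in both groups. NAB1 and NAB2, corepressors that bind EGR1, had log2 fold changes of 0.15 and -0.034 and were not called (adjusted p = 0.068 and 0.68).

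IER2 (ENSG00000160888, hg19 chromosome 19, 13261282 to 13265716), a short early response gene whose product is found in the nucleus, was at 35.2, 34.6 and 34.1 FPKM in the knockdown and 37.0, 37.9 and 40.001 FPKM in the control. The groups did not overlap, and the narrowest gap between them was between knockdown replicate 1 and control replicate 1. The knockdown mean was 90.4% of the control mean (log2 fold change -0.14, SE 0.04, limma adjusted p = 0.037). IER2 no longer passed when knockdown replicate 1, 2 or 3 or control replicate 2 or 3 was left out (adjusted p up to 0.10), or after the GC and length correction, where the log2 fold change was -0.075 (adjusted p = 0.16). Nor did it pass with no filter on low values (adjusted p = 0.078) or without the intensity trend (adjusted p = 0.068).

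IER3, an early response gene involved in cell survival, was listed at 0 in 4 of the 6 libraries and reached 0.025 FPKM in knockdown replicate 3 and 0.038 FPKM in control replicate 2. The symbol has 6 rows, and the 5 others, on alternate haplotype contigs of the chromosome 6 MHC region, were listed at 0 throughout. Near-identical copies share reads, so a value this low may be a failed estimate, and IER3 is given no fold change here.

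FOSL2 (ENSG00000075426, hg19 chromosome 2, 28615315 to 28640179), which encodes the FOS family protein FRA2, was at 32.1, 33.7 and 31.0 FPKM in the knockdown and 30.6, 28.99 and 27.3 FPKM in the control. All 3 knockdown values were above all 3 control values, the nearest pair being knockdown replicate 3 and control replicate 1. The log2 fold change was 0.15 (95% interval 0.04 to 0.27), and it did not pass the threshold (limma adjusted p = 0.074). After the GC and length correction it did, at 0.19 (adjusted p = 0.044). An opposite-strand transcript, AC104695.3, overlaps FOSL2 and was at 0.507 and 0.547 FPKM in the knockdown and control. The strand setting of the counting is not given in the sources used here.

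FOSL1 (ENSG00000175592, hg19 chromosome 11, 65659490 to 65668044), which encodes FRA1, a FOS protein typical of cells with sustained ERK signalling, was at 63.8, 62.0 and 61.3 FPKM in the knockdown and 63.0, 64.1 and 63.1 FPKM in the control. The libraries overlapped. The 95% interval of the change in FPKM + 1 ran from -5.78% to 2.82% (log2 fold change -0.023, limma adjusted p = 0.60), and the sign was opposite after the GC and length correction, at 0.033 (adjusted p = 0.39).

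FOS (ENSG00000170345, hg19 chromosome 14, 75745477 to 75748933) was at 4.55, 4.32 and 4.53 FPKM in the knockdown and 4.87, 4.97 and 4.73 FPKM in the control. The groups did not overlap, yet the difference was not called (log2 fold change -0.10, 95% interval -0.21 to 0.02, limma adjusted p = 0.21). FOSB, the remaining FOS family gene, was at 0.667 ± 0.061 and 0.777 ± 0.072 FPKM in the knockdown and control, below the level for testing.

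JUNB, JUND and JUN encode the JUN side of the dimer, of which JUN is the strongest activator and JUNB and JUND the weaker ones. JUNB (ENSG00000171223, hg19 chromosome 19, 12902310 to 12904124) was at 94.4, 88.2 and 86.9 FPKM in the knockdown and 93.9, 96.6 and 99.0 FPKM in the control. Knockdown replicate 1 lay within the control range and the other knockdown libraries below it. The log2 fold change was -0.10 (95% interval -0.19 to -0.01, limma adjusted p = 0.11).

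JUND (ENSG00000130522, hg19 chromosome 19, 18390563 to 18392432) was at 23.9, 20.4 and 20.7 FPKM in the knockdown and 23.3, 24.8 and 24.6 FPKM in the control. Here too knockdown replicate 1 stood apart from replicates 2 and 3 and within the control range. The log2 fold change was -0.16 (95% interval -0.30 to -0.01, limma adjusted p = 0.12). Without knockdown replicate 1 both genes passed, JUND at -0.23 (adjusted p = 0.022) and JUNB at -0.14 (adjusted p = 0.049). Neither passed when any other library was dropped (limma adjusted p from 0.14 to 0.29 for JUND and from 0.12 to 0.27 for JUNB).

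JUN (ENSG00000177606, hg19 chromosome 1, 59246465 to 59249785) was at 22.5, 21.4 and 20.9 FPKM in the knockdown and 22.03, 22.1 and 21.4 FPKM in the control, with overlapping groups. The 95% interval of the change in FPKM + 1 was -6.99% to 4.997% (log2 fold change -0.017, limma adjusted p = 0.79). The sign was opposite after the GC and length correction (0.021) and without knockdown replicate 3 (0.0056).

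The difference between the groups varied with GC content over the tested genes, and its part in the member differences was not tested. Over all tested genes the median log2 fold change was 0.031 below 40% GC, -0.022 from 55% to 60%, -0.047 from 60% to 65% and -0.059 above 65%. The transcripts of JUND were 69.7% GC, of JUNB 64.9% and of IER2 62.9%. After the GC and length correction the log2 fold changes were -0.062 for JUND, -0.028 for JUNB and -0.075 for IER2, none of them called. JUND and JUNB were not called before it either. EGR1 transcripts were 55.4% GC and those of FOSL2 56.5%. FOS and FOSL1 transcripts were both 60.1% GC, those of MYC 58.7% and those of JUN 56.7%.

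**Figure D2:**
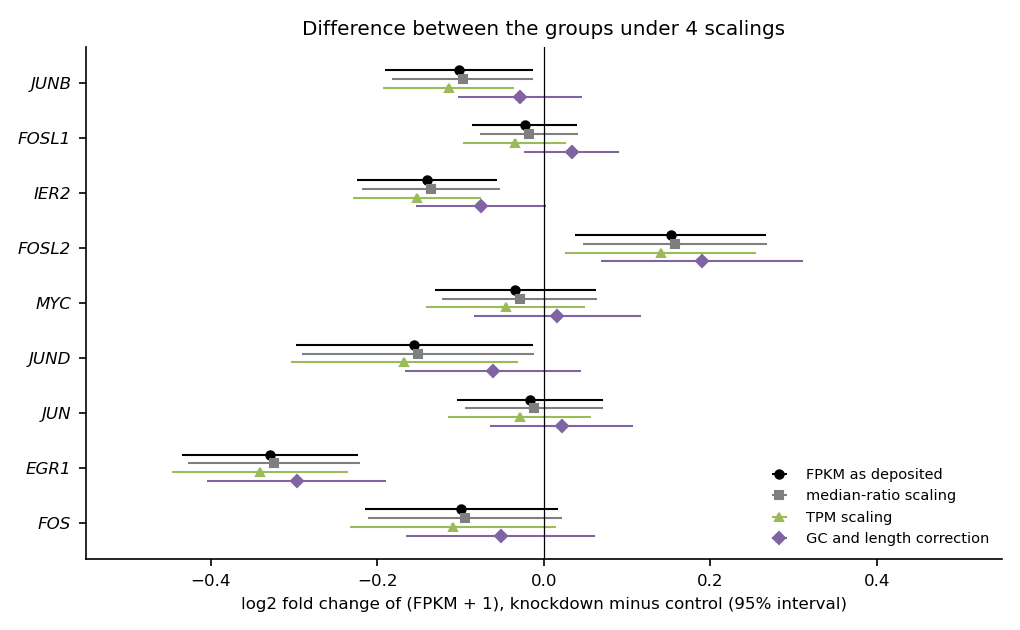
Log2 fold change of (FPKM + 1), knockdown minus control, with its 95% interval from limma for the 9 tested genes, under the deposited scaling (black), median-ratio scaling (grey), TPM scaling (green) and the GC and length correction (purple). The EGR1 interval lies below 0 under all 4, with values from -0.34 after TPM scaling to -0.30 after the correction, while JUNB, JUND and IER2 move towards 0 under the correction.

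The make-up of the FOS family RNA was described as shares of the summed FPKM of FOS, FOSB, FOSL1 and FOSL2. The sum itself was 99.8 ± 2.0 FPKM with the hairpins against ESRP and 98.0 ± 1.8 FPKM without them. FOSL2 made up 31.7%, 33.5% and 31.8% in knockdown replicates 1, 2 and 3 and 30.9%, 29.3% and 28.4% in control replicates 1, 2 and 3. FOSL1 made up 62.5 ± 0.80% and 64.7 ± 1.1%, and FOS 4.48 ± 0.18% and 4.96 ± 0.065%, in the knockdown and control. For these 3 genes the shares of the groups did not overlap, the FOSL2 share being higher and the FOSL1 and FOS shares lower in the knockdown. By FPKM, the groups did not overlap for 38.1% of all tested genes. Within the JUN family, JUNB held 67.5 ± 0.43% in the knockdown and 67.7 ± 0.51% in the control, and JUN 16.2 ± 0.22% and 15.3 ± 0.52%. The JUN shares of the groups did not overlap either, while those of JUNB and JUND did. Shares sum to the whole, so the members of a family do not vary independently, and no test was made.

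**Figure D3:**
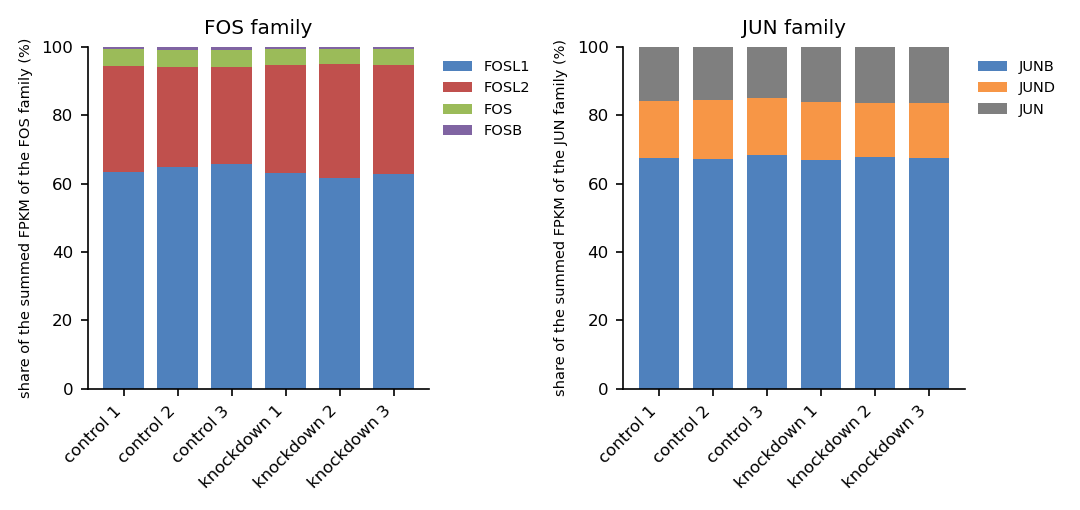
Share of the summed FPKM of the FOS family (left) and of the JUN family (right) taken by each gene, in each of the 6 libraries. FOSL1 and JUNB take most of their families in every library, and the FOSL2 share is 31.7% to 33.5% in the knockdown and 28.4% to 30.9% in the control.

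MYC (ENSG00000136997, hg19 chromosome 8, 128747680 to 128753674) was at 25.5, 27.0 and 25.2 FPKM in the knockdown and 26.2, 27.7 and 25.7 FPKM in the control. The groups overlapped. The 95% interval of the change in FPKM + 1 was -8.67% to 4.44% (log2 fold change -0.034, limma adjusted p = 0.61), and the sign was opposite after the GC and length correction, at 0.016 (adjusted p = 0.82).

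Patterns over the 6 libraries were compared by Pearson's r of log2(FPKM + 1), as a description only, since the libraries share the group difference. The 3 genes closest to EGR1 were SLC17A5 (r = 0.9997), FAM3C2 (0.998) and ORAI3 (0.994), and 382 tested genes had r above 0.95 with it. For MYC they were MCM10 (0.989), C17orf39 (0.979) and ASAH1 (0.977), and 12 genes lay above 0.95. JUN was closest to ATAD3A (0.997), FBXL18 (0.995) and KPNA3 (0.991), with 16 such genes. For FOSL1, DLAT (0.985) and C4orf48 (0.983) were the closest, and 29 genes lay above 0.95.

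Lists of other genes of these pathways held 176 tested genes, of which 19 rose and 31 fell. Over all tested genes 6.54% rose and 10.2% fell. The lists were chosen with earlier results of these data known, so list counts set beside all-gene shares are a description. Other AP-1 family genes were examined first. Of 10 tested, ATF3 and MAFF fell and none rose, with 4 lower and 0 higher at an unadjusted p below 0.05, where 18.2% of all tested genes were lower (limma). The median log2 fold change was -0.11, and -0.066 after the GC and length correction. ATF3, a stress-induced partner of JUN proteins, was at 19.6, 19.9 and 17.9 FPKM in the knockdown and 25.5, 27.0 and 23.997 FPKM in the control libraries, or 75.005% of the control mean (log2 fold change -0.40, limma adjusted p = 0.0041). MAFF, a small MAF protein without an activation domain of its own, was at 80.2% of the control mean (adjusted p = 0.013), which did not pass if control replicate 2 or 3 was dropped (adjusted p up to 0.052).

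Other immediate early genes fell in 9 and rose in 3 of 30 tested, where 10.2% of all tested genes fell and 6.54% rose. Their median log2 fold change was -0.14. The groups did not overlap for 20 of the 30, against 38.1% of all tested genes. KLF4, a Kruppel-like factor of epithelial cells, was at 77.1% of the control mean (log2 fold change -0.36, limma adjusted p = 5.3e-04) and IER5, a relative of IER2, at 79.9% (adjusted p = 0.0030). ZFP36, which encodes tristetraprolin, a protein that marks short-lived mRNAs for decay, was at 11.2, 10.3 and 11.6 FPKM in the knockdown and 14.1, 14.4 and 15.1 FPKM in the control libraries, or 75.9% of the control mean (adjusted p = 0.0040). The 3 genes that rose were CTGF, CYR61 and TIPARP. CTGF and CYR61 encode secreted CCN proteins that also respond to YAP and TAZ, and TIPARP encodes a mono-ADP-ribosyltransferase. CTGF was at 142% of the control mean (log2 fold change 0.42, adjusted p = 0.0030), CYR61 at 112% (adjusted p = 0.021) and TIPARP at 111% (adjusted p = 0.043). CYR61 no longer passed when knockdown replicate 1 or 2 or control replicate 2 or 3 was dropped (adjusted p up to 0.076). TIPARP no longer passed when any library other than knockdown replicate 1 was dropped (adjusted p up to 0.12).

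SRF, serum response factor, which binds the CArG box and is itself an early gene, was singled out after its values were seen. It was at 20.0, 19.8 and 21.2 FPKM in the knockdown and 23.6, 24.5 and 23.1 FPKM in the control, with no overlap (log2 fold change -0.22, limma adjusted p = 0.011, up to 0.046 when a library was left out). Of its ETS partners, ELK1 was at 29.8 ± 0.31 and 29.7 ± 0.90 FPKM in the knockdown and control, and ELK3 and ELK4 had log2 fold changes of -0.14 each, without a call (adjusted p = 0.12 and 0.089).

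Of 17 upstream transcription factors and kinases, MAP2K4 and RPS6KA1 fell and MKL2 rose. The share called, 17.6%, was near the 16.7% of all tested genes. The median log2 fold change was 0.0098 as deposited and -0.0023 after TPM scaling. The number of genes called was 0 when knockdown replicate 1 or control replicate 1 or 2 was dropped, and 1 when any other library was. The median moved with the library dropped, from -0.0060 without knockdown replicate 2 to 0.035 without knockdown replicate 3, and was also below 0 without knockdown replicate 1 or control replicate 3. MAP2K4, a kinase that activates JNK, was at 88.8% of the control mean (limma adjusted p = 0.023), which did not pass if knockdown replicate 1 or 3 or control replicate 1 or 2 was dropped (adjusted p up to 0.081). RPS6KA1, a kinase activated by ERK, was at 92.1% (adjusted p = 0.036), and MKL2, a coactivator of SRF, at 110% (adjusted p = 0.048). Neither gene passed when any 1 library was dropped (adjusted p up to 0.13), RPS6KA1 did not pass after the GC and length correction, and MKL2 did not pass after TPM scaling.

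Genes known as AP-1 targets fell in 10 of 25 tested and rose in none, where 10.2% of all tested genes fell. At an unadjusted p below 0.05 (limma) 14 were lower and 0 higher, where 18.2% of all tested genes were lower. With no filter on low values 6 of 26 fell. Their median log2 fold change was -0.17 as deposited and -0.13 after the GC and length correction, where 9 were lower and 1 higher. Without control replicate 2 it was -0.088 over the 24 genes then tested, with 9 lower. PLAU, the urokinase plasminogen activator, was at 167, 166 and 166 FPKM in the knockdown and 219, 217 and 221 FPKM in the control libraries, or 75.9% of the control mean (log2 fold change -0.40, SE 0.02, limma adjusted p = 1.4e-04). ITGB4, an integrin of hemidesmosomes, was at 73.2%, and IL8, the chemokine CXCL8, at 67.8% (adjusted p = 2.1e-04 and 3.2e-04). SPHK1, sphingosine kinase 1, was at 3.58, 3.62 and 3.92 FPKM in the knockdown and 5.67, 6.51 and 6.07 FPKM in the control (log2 fold change -0.59, adjusted p = 0.0014). CCND1, HMGA2 and PLAUR were among the 15 without a call, with log2 fold changes of 0.084, 0.014 and -0.0053. These genes respond to other factors as well, so the list does not measure AP-1 activity. It was also chosen with earlier results of these data known, so its counts cannot show enrichment.

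**Figure D4:**
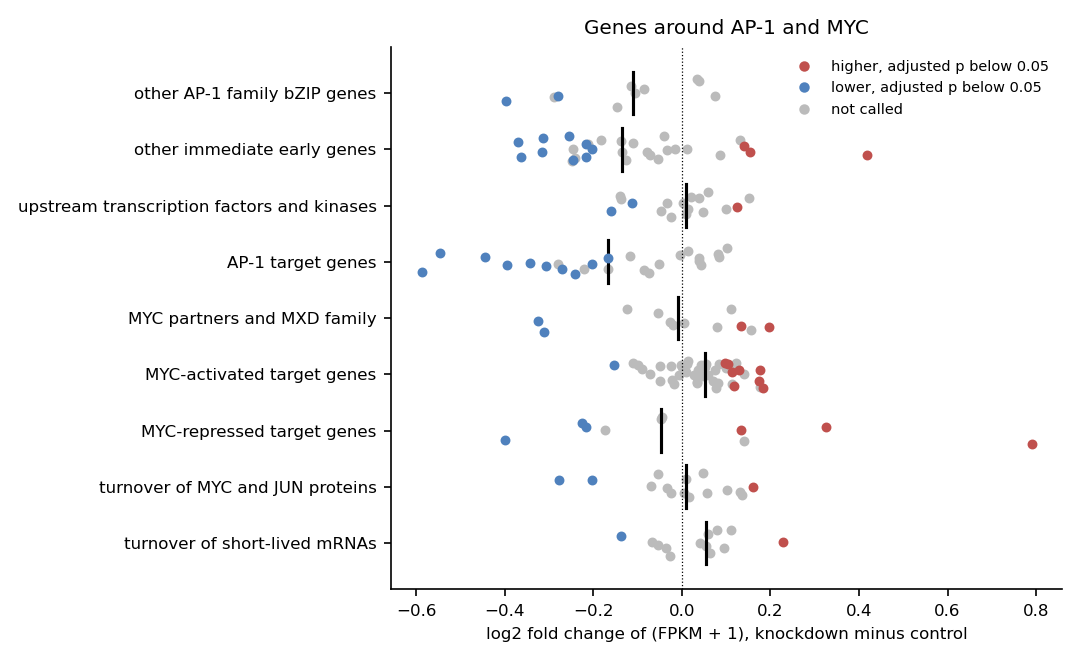
Log2 fold change of (FPKM + 1), knockdown minus control, for each tested gene of the 9 lists (points; red higher and blue lower at a limma adjusted p below 0.05, grey not called; black bars are list medians). The AP-1 target and other immediate early genes have medians of -0.17 and -0.14, and the MYC-activated genes lie close to 0, with a median of 0.053.

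MYC partners and the related MXD and MLX proteins were called in 4 of 12, with 2 higher and 2 lower, against 16.7% of all tested genes. The median log2 fold change was -0.0078, and 0.028 after the GC and length correction, where 3 were higher and 0 lower. It ran from -0.017 without knockdown replicate 1 to 0.0080 without knockdown replicate 3, and was also above 0 without control replicate 2. The number called was 3 without knockdown replicate 3, 0 without control replicate 1 and 1 without any other library. MAX, the partner of MYC, was at 49.4, 50.7 and 49.4 FPKM in the knockdown and 44.6, 45.8 and 45.6 FPKM in the control (log2 fold change 0.13, limma adjusted p = 0.017). MXI1, which competes with MYC for MAX, was at 115% of the control mean (adjusted p = 0.018). MAX did not pass if knockdown replicate 2 or any 1 control library was dropped (adjusted p up to 0.058), nor MXI1 if knockdown replicate 1 or control replicate 1 or 3 was (adjusted p up to 0.064). MLXIPL, a glucose-responsive factor, and MYCL1, a MYC relative, were low genes at 71.7% and 65.7% of the control mean, and neither passed when any 1 library was dropped (adjusted p up to 0.11) or after the GC and length correction. MYCN was listed at 0 in all libraries.

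MYC-activated genes rose in 8 and fell in 1 of 45, with a median log2 fold change of 0.053, and 0.034 without control replicate 3. The share called was 20%, near the 16.7% of all tested genes, of which 6.54% rose and 10.2% fell. The number that rose depended on single libraries: it was 1 without knockdown replicate 1 or control replicate 2 or 3, 3 without knockdown replicate 2 or control replicate 1, and 10 without knockdown replicate 3. With no filter it was 4. PAICS and PPAT, enzymes of purine synthesis, were at 114% and 113% of the control mean (limma adjusted p = 0.0061 and 0.022). NOP56, a protein of ribosomal RNA modification, and LDHA, lactate dehydrogenase, were at 108% and 113% (adjusted p = 0.024 and 0.027), and RRP9, another small nucleolar RNA binding protein, was lower at 89.4% (adjusted p = 0.034). PAICS passed whichever library was dropped (adjusted p up to 0.030). PPAT did not pass if knockdown replicate 1 or control replicate 2 or 3 was dropped, nor LDHA if knockdown replicate 1 or 2 or control replicate 2 or 3 was. NOP56 passed only when the library dropped was knockdown replicate 3, and RRP9 only when it was knockdown replicate 1 (adjusted p of these 4 genes up to 0.10). RRP9 also did not pass after the GC and length correction. The other 4 genes that rose, FBL, PPAN, APEX1 and IPO4, named after their values were seen, were at 107% to 109% of the control mean. FBL and APEX1 passed in 1 of the 6 fits with a library dropped, and PPAN and IPO4 in none. The MYC targets NCL, ODC1 and CAD had log2 fold changes of 0.059, 0.055 and 0.026 and were not called.

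Genes that MYC represses in other settings were called in 6 of 10, with 3 higher and 3 lower, against 16.7% of all tested genes. Their median log2 fold change was -0.047. The median was -0.0048 after the GC and length correction, and with 1 library dropped it was -0.071 (knockdown replicate 1), -0.020 (knockdown replicate 2) or -0.031 (control replicate 2), while the calls numbered 6 or 7 in those fits. THBS1, thrombospondin 1, was at 174% of the control mean (log2 fold change 0.79, limma adjusted p = 1.6e-04) and NDRG1, a gene also induced by hypoxia, at 126% (adjusted p = 0.0028). CDKN1A, the cell cycle inhibitor p21, was at 32.8, 33.1 and 34.4 FPKM in the knockdown and 43.4, 44.7 and 45.3 FPKM in the control libraries, or 75.2% of the control mean (adjusted p = 5.0e-04). GADD45A, a stress gene also held in the immediate early list, was at 85.8% (adjusted p = 0.0041).

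Genes that control the turnover of MYC and JUN proteins were called in 3 of 15 (20%), near the 16.7% of all tested genes. Their median log2 fold change was 0.010 as deposited and -0.00017 after TPM scaling. It was 0.0039 after the GC and length correction, and ran from -0.018 without control replicate 3 to 0.024 without control replicate 2, with 0.0023 without control replicate 1. The number called was 1 without control replicate 2 or 3. ITCH, a ubiquitin ligase that targets JUN and JUNB, was at 31.3, 32.1 and 30.6 FPKM in the knockdown and 38.9, 39.1 and 36.6 FPKM in the control libraries, or 82.0% of the control mean (limma adjusted p = 0.0033). PPP2R5A, a phosphatase subunit acting on MYC, was at 85.3% (adjusted p = 0.016) and KIAA1524, the phosphatase inhibitor CIP2A, at 112% (adjusted p = 0.026). PPP2R5A did not pass if control replicate 2 or 3 was dropped, nor KIAA1524 if either of these or knockdown replicate 1 or 2 was (adjusted p up to 0.089). FBXW7, the ligase subunit that recognises phosphorylated MYC and JUN, was at 5.98 ± 0.27 and 5.93 ± 0.25 FPKM in the knockdown and control.

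Genes acting on short-lived mRNAs were called in 2 of 13 (15.4%), near the 16.7% of all tested genes. Their median log2 fold change was 0.054. The median was 0.029 without knockdown replicate 1 and 0.025 without control replicate 3. When 1 library was dropped the number called was 1 for control replicate 1, 2 for knockdown replicate 3 and 0 for the other libraries. IGF2BP2 was at 90.5% and IGF2BP3 at 118% of the control mean (limma adjusted p = 0.029 and 0.044), both RNA binding proteins of the family that protects MYC mRNA. IGF2BP2 passed only when the library dropped was knockdown replicate 3, and IGF2BP3 did not pass if knockdown replicate 1 or 2 or control replicate 2 or 3 was dropped (adjusted p up to 0.12). ELAVL1, which encodes the stabilising protein HuR, was at 36.8 ± 1.3 and 35.7 ± 1.3 FPKM in the knockdown and control and was not called.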

How the data were processed

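H358 cells gave 6 paired-end libraries from a kit that keeps strand, grouped by their titles. The authors deposited FPKM for every Ensembl gene. The submitters' processing notes name TopHat 1.4.1 and Cuffdiff 2.2.0 with hg19, while the annotation release and strand setting were not given in the sources used here. Starts were raised by 1, because gene lengths matched those of GENCODE v29 for 31661 of 45529 shared IDs when counted from 0 and for 634 when counted from 1. Of 54607 rows, 27772 were at 0 in all libraries.

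A two-sided limma fit (3.58.1, R 4.3.3), moderated by eBayes with an intensity trend, was run on log2(FPKM + 1) for all 13611 rows averaging 1 FPKM or more, with Benjamini-Hochberg adjustment over all of them and a threshold of 0.05. For a repeated symbol the row with the highest mean was taken. Relative depth is the most common ratio of values below 0.3 FPKM between libraries. The GC and length correction removed each library's spline trend (4 degrees of freedom each) on GENCODE v29 transcript medians, known for 96.6% of tested rows. The fit was also repeated with TPM or median-ratio scaling, with filters of 0 and 5 FPKM, with 0.1 as the pseudocount, without the intensity trend, with replicate numbers as a block and without each library in turn. The members and lists were chosen with earlier results of these data known, and no set test was made. Named list genes are up to 4 called genes per list by smallest adjusted p and every call against the list's majority. For 4 members the 3 genes most alike over the libraries were taken, of which 1 is not reported here. Uncalled genes, and SRF, were named after their values were seen. Nothing says whether the triplicates were separate cultures, so p-values measure the spread between these libraries, which may be technical.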

Additional observations from a re-analysis of the deposited data

How the results depend on the processing

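The replicate numbers showed no clear pairing of the libraries. Deviations from the group means correlated at -0.02, 0.06 and 0.07 between libraries of the same number, and not every library correlated best with its own number. With 3 libraries per group such correlations cannot exclude a weak pairing. With the number as a replicate block, 1433 genes were called in place of 2278, 32 list genes in place of 50 and 1 member, EGR1, in place of 2, the IER2 log2 fold change of -0.14 then having an adjusted p of 0.090. With no filter 1413 genes and 1 member were called, and without the intensity trend 1 member, IER2 being lost at -0.14 in both. After the GC and length correction, with or without the replicate block, IER2 was lost at -0.075, FOSL2 passed at 0.19, and the signs of FOSL1 (0.033), JUN (0.021) and MYC (0.016) were opposite. The cause was not tested. Leaving out each library gave 1223 to 2033 called genes, 1 to 3 called members and 27 to 48 called list genes. In those fits the log2 fold change ran from -0.16 to -0.11 for IER2, from -0.14 to -0.079 for JUNB, from -0.23 to -0.12 for JUND and from -0.047 to 0.0056 for JUN. EGR1 was called under every alternative run. For the 50 called list genes no alternative reversed the sign, and 176 of 745 values were no longer past the threshold. Without totals, the depth behind low genes such as FOS, FOSB and SPHK1 is unknown.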
